A study of Homo sapiens with 6 samples.

Results

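The keratins KRT5, KRT7, KRT8, KRT15, KRT17, KRT18, KRT19, KRT20, KRT23 and KRT80 were followed after silencing of C1GALT1 in AGS, a cell line from a human gastric adenocarcinoma. They are 10 of the 22438 genes that the array names. Their probes were found through the RefSeq accession that the array gives for each probe, which left 14 keratin probes of 58201 probes in all. C1GALT1 encodes the galactosyltransferase that extends the GalNAc residue of mucin-type O-glycans, and the question was which transcripts differ once it is silenced. RNA was taken 48 h after transfection with the nontargeting siRNA (si-Control, 3 samples) or with one siRNA against C1GALT1 (si-C1GALT1-3, 3 samples), with no other agent. Both groups are the same cell line and both were transfected, and neither untransfected cells nor a further siRNA sequence was analysed here. Each sample had its own Agilent array read in a single colour. Arrays with the same replicate number shared a slide, always with si-Control in column 1 and si-C1GALT1-3 in column 2, and place and siRNA cannot be told apart. The labels do not say that the samples came from separate cultures, so the p-values measure the spread between these samples.

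Keratins are the intermediate filament proteins of epithelial cells. An acidic type I keratin (here KRT15, KRT17, KRT18, KRT19, KRT20 and KRT23) pairs with a basic type II keratin (here KRT5, KRT7, KRT8 and KRT80), and the pairs assemble into filaments that are anchored at desmosomes. Simple glandular epithelium such as that of the stomach is known for KRT8 with KRT18 and KRT19, often with KRT7. KRT5 and KRT15 belong to basal cells of stratified epithelia, KRT17 appears in skin appendages and injured or transformed epithelium, and KRT20 marks surface cells of the stomach and intestine.

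All values are log2 of the deposited spot signal after quantile normalization over the 6 arrays, and all differences are si-C1GALT1-3 minus si-Control on that log2 scale. Between 66.2% and 72.7% of gene spots on an array were well above background, and no gene spot was saturated. Precision is limited by having 3 arrays a group. The array of si-Control replicate 2 had an area of low signal in its centre, whose 9712 gene spots (15.9%) were left out on that array only, and 3 keratin probes lay in it. The probe of C1GALT1, outside that area, read 12.22, 13.03 and 12.62 in si-Control replicates 1, 2 and 3 and 11.76, 11.98 and 11.13 in si-C1GALT1-3 replicates 1, 2 and 3. The groups did not overlap, and the difference was -1.0003 (SE 0.31, limma adjusted p = 0.265 over all probes). It missed the unadjusted p under 0.01 that a call needs. All 8 epithelial markers looked up, EPCAM and CDH1 among them, were well above background. The log2 of the summed linear signal of the 6 markers measured on every array ran from 16.64 to 17.08 in si-Control and from 16.70 to 17.06 in si-C1GALT1-3. Brighter markers weigh more in that sum, and single markers differed. ELF3, outside the sum, was the 1 epithelial marker called, higher by 1.04 (SE 0.18). CLDN7 differed by -0.65 (SE 0.18) with groups that did not overlap, and was not called. Both were picked after their values were seen. Of 6 fibroblast markers, COL1A2 and LUM were not well above background on any array, and COL1A1, COL3A1 and PDGFRB were well above it in both groups. COL1A1 differed by -0.05 (SE 0.24), COL3A1 by 1.17 (SE 0.46) and PDGFRB by -0.81 (SE 0.19), and none of them passed p under 0.01 with 2-fold. The other PDGFRB probe, A_23_P421401, cleared background on no array. All 5 leukocyte markers on the array were well above background in at least 1 group, PTPRC among them at 13.97 ± 0.36 (SD, n = 3) in si-Control and 13.64 ± 0.09 (SD, n = 3) in si-C1GALT1-3, and 2 of 4 endothelial markers were. The probes of PTPRC did not share a direction. A_33_P3364821 was called higher, from 6.52 to 8.42 (SE 0.39), and so was A_33_P3364811, which cleared background on none of the si-Control arrays. The part of these markers in the results was not tested.

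None of the 10 keratins passed the criterion of p under 0.01 and at least 2-fold in either direction, beside 3.41% of all named genes that did. None of their 14 probes passed either, beside 2.64% of all probes. No keratin had an adjusted p under 0.05, a level that 0.138% of named genes reached, and 1 keratin, KRT23, had an unadjusted p under 0.05 in limma, beside 16.6% of named genes. In the methods' t-test, which the study names for its other experiments, 1 keratin had p under 0.05 and none did after adjustment. Of the keratins, 8 were well above background and 2 were not. Of the 8, the differences ran from -0.36 for KRT18 to 0.76 for KRT23, with 6 below 0 and 2 above it. Their median was -0.11, beside 0.04 for all genes well above background. KRT23 was the only one of these 8 whose groups did not overlap, and 28.6% of the genes well above background had groups that did not overlap. The 95% intervals of KRT7, KRT15 and KRT19 lay inside 2-fold in both directions. The intervals of the other 5 reached past 2-fold on at least 1 side, so this fit does not show that a change of that size was absent. The fit has no term for the slide, so differences between slides widen these intervals. With the replicate number as a term, the SEs of KRT8 and KRT18 were smaller, and no intervals are given for that fit.

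The partners of simple epithelium, KRT8 and KRT18, were lower with si-C1GALT1-3 on every slide after normalization, and neither mean difference passed the test. Before normalization, slide 3 read 207040 in si-Control and 211351 in si-C1GALT1-3 for KRT8, and 164343 and 160631 for KRT18. KRT8, the type II partner, read 17.37, 17.43 and 18.06 in si-Control replicates 1, 2 and 3 and 16.91, 17.16 and 17.92 in si-C1GALT1-3 replicates 1, 2 and 3. KRT18, the type I partner, read 17.16, 17.12 and 17.70 in si-Control and 16.57, 16.82 and 17.53 in si-C1GALT1-3. In both genes the si-C1GALT1-3 array of slide 3 lay above the si-Control arrays of slides 1 and 2, so the groups overlapped. The difference was -0.29 for KRT8 (SE 0.34, 95% interval -1.11 to 0.54, limma adjusted p = 0.768). It was -0.36 for KRT18 (SE 0.31, 95% interval -1.12 to 0.41, limma adjusted p = 0.670). Within slides 1, 2 and 3, the KRT8 difference was -0.46, -0.26 and -0.14. The KRT18 difference was -0.59, -0.30 and -0.18. In both genes it was furthest from 0 on slide 1 and nearest to 0 on slide 3. The C1GALT1 difference within slides 1, 2 and 3 was -0.47, -1.05 and -1.49, the opposite order. A link between these orders was not tested. Single arrays weighed on the mean differences of KRT8 and KRT18. Leaving out each array in turn gave -0.58 to -0.06 for KRT8, nearest to 0 without si-Control replicate 3 and furthest without si-C1GALT1-3 replicate 3. It gave -0.63 to -0.15 for KRT18, nearest to 0 without si-C1GALT1-3 replicate 1 and furthest without si-C1GALT1-3 replicate 3.

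A further probe of each gene gave like values. The next KRT8 probe (A_24_P67395) differed by -0.31 (SE 0.32), with -0.56, -0.23 and -0.14 on slides 1, 2 and 3. The further KRT18 probe (A_24_P42136), which has no value on si-Control replicate 2, differed by -0.33 (SE 0.44), with -0.34 on slide 1 and -0.09 on slide 3. Before normalization, both of these probes were higher with si-C1GALT1-3 on slide 3. The KRT8 probe assigned to a non-coding transcript of the gene (A_33_P3372368) did not follow the other KRT8 probes. It read 11.79, 11.09 and 10.76 in si-Control and 11.65, 11.07 and 10.84 in si-C1GALT1-3, a difference of -0.02 (SE 0.34), and on both sides it was highest on slide 1, where the other KRT8 probes were lowest.

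KRT19, the tailless type I keratin of simple epithelium, showed no common direction. It read 15.67, 16.01 and 16.81 in si-Control and 15.79, 16.06 and 16.53 in si-C1GALT1-3. The difference was -0.04 (SE 0.35, 95% interval -0.92 to 0.83, limma adjusted p = 0.986), and within slides it was 0.11, 0.05 and -0.29. KRT7, the type II keratin of ducts and glands, had the smallest spread of the 6 keratins of simple and transformed epithelium in the plot of slides. It read 16.99, 16.69 and 16.50 in si-Control and 16.75, 16.57 and 16.46 in si-C1GALT1-3. The difference was -0.13 (SE 0.18, 95% interval -0.58 to 0.32, limma adjusted p = 0.814). It was below 0 on all 3 slides after normalization, and the groups overlapped. Before normalization, slide 3 read 69160.1 in si-Control and 76585.5 in si-C1GALT1-3.

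In the normalized values, slides 1 and 3 differed by more than the groups did in KRT7, KRT8, KRT15, KRT17, KRT18, KRT19 and KRT80. The direction was not the same in all of them. Before normalization, the groups differed by more than slides 1 and 3 did in KRT18. Averaged over both arrays of a slide, slide 3 exceeded slide 1 by 0.85 for KRT8, 0.75 for KRT18, 0.94 for KRT19 and 0.63 for KRT80. For KRT7 slide 3 was lower than slide 1 (-0.39), as it was for KRT17 (-0.96), for KRT15 (-0.28) and for the non-coding KRT8 probe (-0.92). In these normalized values both arrays of a slide shared the direction in KRT7, KRT8, KRT17, KRT18, KRT19 and KRT80. Before normalization they did not in KRT18 and KRT80. From slide 1 to slide 3 the KRT18 signal went from 175983 to 164343 in si-Control and from 119820 to 160631 in si-C1GALT1-3. That of KRT80 went from 9671 to 8572 and from 6135 to 8006. For KRT8 it went from 197340 to 207040 and from 152462 to 211351. The median log2 signal of the si-Control array before normalization was 8.20 on slide 1 and 7.27 on slide 3. The pooled SD within groups had a median of 0.44 over the 8 keratins, beside 0.29 over all genes well above background, while the median size of the difference was 0.15, beside 0.30. The cause of the slide pattern was not tested.

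KRT23, a type I keratin known to be induced by histone deacetylase inhibitors in tumor cell lines, was the member that differed most. The chosen probe (A_23_P78248), which has no value on si-Control replicate 2, read 7.22 and 7.23 in si-Control replicates 1 and 3 and 8.18, 7.95 and 7.82 in si-C1GALT1-3 replicates 1, 2 and 3. Every si-C1GALT1-3 array was above both si-Control arrays. The means were 7.23 ± 0.01 (SD, n = 2) and 7.99 ± 0.18 (SD, n = 3), a 1.69-fold difference of 0.76 on the log2 scale (SE 0.18, 95% interval 0.30 to 1.22, limma adjusted p = 0.206). The SD of the si-Control group rests on 2 arrays.

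The further KRT23 probe (A_33_P3299761) lay outside the low-signal area and was measured on all 6 arrays. It read 7.06, 6.63 and 7.58 in si-Control and 8.41, 7.80 and 8.02 in si-C1GALT1-3, again with no overlap. The means were 7.09 ± 0.48 (SD, n = 3) and 8.07 ± 0.31 (SD, n = 3), a 1.98-fold difference of 0.98 (SE 0.30, 95% interval 0.25 to 1.72, limma adjusted p = 0.257). On slides 1, 2 and 3 it was 1.35, 1.17 and 0.43. Without si-Control replicate 3 this probe passed p under 0.01 and 2-fold, at 1.22 (SE 0.26). The share of named genes whose groups did not overlap with si-C1GALT1-3 higher was 14.0%, so KRT23 is 1 keratin of 10 beside that background.

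Both KRT23 probes showed the same direction, and the genes whose profile over the 6 arrays was closest to the probe measured on all of them were compared by the root mean square difference of mean-centred log2 signal. Among 18649 probes of other named genes well above background on every array, the nearest genes included MAST4-AS1 (0.13) and ALDH16A1 (0.14). The latter is an aldehyde dehydrogenase family member. ALDH16A1 read 11.41, 11.03 and 11.76 in si-Control and 12.36, 12.04 and 12.28 in si-C1GALT1-3. Its difference was 0.83 (SE 0.22), and a value near that of KRT23 follows from how the gene was picked.

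KRT17, the keratin of appendages and transformed epithelium, had the widest spread among si-Control arrays after KRT80. It read 12.77, 12.40 and 11.26 in si-Control and 12.33, 11.92 and 11.92 in si-C1GALT1-3. The difference was -0.09 (SE 0.41, 95% interval -1.11 to 0.93, limma adjusted p = 0.966), and within slides it was -0.44, -0.48 and 0.66. KRT80, a type II keratin found near desmosomes of differentiating cells, read 12.93, 11.84 and 13.37 in si-Control and 12.37, 12.04 and 13.19 in si-C1GALT1-3. Slide 2 was the lowest on both sides. The difference was -0.18 (SE 0.49, 95% interval -1.39 to 1.04, limma adjusted p = 0.932).

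KRT15, a keratin of basal cells, has no value on si-Control replicate 2. It read 10.23 and 9.65 in si-Control replicates 1 and 3 and 10.03, 10.08 and 10.06 in si-C1GALT1-3 replicates 1, 2 and 3. The si-C1GALT1-3 arrays lay between the pair of si-Control arrays, and the difference was 0.12 (SE 0.22, 95% interval -0.47 to 0.70, limma adjusted p = 0.887).

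The low-signal area decides what 3 of the keratin probes show. With its spots kept, si-Control replicate 2 read 5.48 for KRT15, 7.72 for the further KRT18 probe and 5.88 for the chosen KRT23 probe. On each of these probes it was the lowest of the 6 arrays. The differences then became 1.58 (SE 1.25) for KRT15, 2.48 (SE 2.42) for the KRT18 probe and 1.18 (SE 0.39) for KRT23. The other KRT18 probe, outside the area, stayed below 0 (-0.39), which leaves the KRT18 probes with opposite signs on the same RNA. KRT23 keeps its direction with the area left out and in the probe outside it.

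KRT5 and KRT20 were not well above background on any of the 6 arrays, so no difference is given for them. The KRT5 signal lay between 3.15 and 3.26 on the 6 arrays. KRT20 read 3.16, 3.20 and 3.98 in si-Control and 3.09, 3.59 and 3.12 in si-C1GALT1-3. The basal partner of KRT15 and the surface keratin of the stomach were thus the members without a measured level.

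The promoters of these undetected keratins are shown beside that of KRT8, the detected keratin for which a promoter was at hand. The RefSeq promoter table (build GRCh38.p14) matched 3 of the 10 keratins. Each line gives the 60 bases before the listed gene start, 5′ to 3′ on the strand of the gene, which is the minus strand for all 3, and capitals mark the motif ATAAAA, which resembles a TATA box.
KRT5 (chr12:52520395-52520454): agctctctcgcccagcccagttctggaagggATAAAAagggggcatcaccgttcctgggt
KRT20 (chr17:40885243-40885302): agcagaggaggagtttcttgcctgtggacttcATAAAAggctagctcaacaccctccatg
KRT8 (chr12:52926470-52926529): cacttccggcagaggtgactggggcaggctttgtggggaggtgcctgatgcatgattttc

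The motif starts at -29 in KRT5 and at -28 in KRT20, counted from the gene start. ATAAAA on the strand of the gene, wholly within 40 to 20 bases before the start, was found in 1.68% of the 35116 promoters in the table. On either strand of the window of 250 bases before to 50 after the start it was in 16% of promoters. The window of KRT20 held it at -193 as well, and on the other strand at -236. The KRT8 window held neither ATAAAA nor GGGCGG, the GC box, which was in 45% of promoters on either strand. The listed KRT8 start is one of several for that gene, and the match of letters is a description and no measure of factor binding.

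Few other keratins passed. Of 28 other keratins of soft epithelia on the array, none passed p under 0.01 and 2-fold as higher, beside 2.08% of named genes, and 1 passed as lower, beside 1.33%. That gene was KRT26, a type I keratin of the hair root sheath. It read 7.33, 7.02 and 7.57 in si-Control and 6.70, 6.23 and 5.95 in si-C1GALT1-3, and it cleared background on 2 of the 3 knockdown arrays. The difference was -1.02 (SE 0.25, limma adjusted p = 0.199). It passed in 7 of the 17 alternative settings, and not with the replicate number as a block (SE 0.26). KRT6C, an injury keratin, differed by 0.80 (SE 0.66), which did not pass. KRT6A, KRT6B and KRT6C are close paralogs, and whether their probes share signal was not tested. The KRT6B probe cleared background on no array, while those of KRT6A and KRT6C cleared it on all 6. Of 15 hair keratins on the array none passed, and over those well above background the values reached from -0.69 (SE 0.33) for KRT39 to 0.40 (SE 0.52) for KRT36. KRT39 passed without si-Control replicate 2, at -1.05 (SE 0.14).

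Among 18 desmosome proteins and plakins, which anchor keratin filaments at the membrane, none passed by its chosen probe. Their median difference was 0.06, and 0.31 over the 14 well above background, beside 0.02 over all named genes and 0.04 over those well above background. EPPK1, the plakin epiplakin that binds keratins, read 11.49, 11.81 and 12.09 in si-Control and 12.69, 12.54 and 13.41 in si-C1GALT1-3. The groups did not overlap, with a difference of 1.09 (SE 0.29, limma adjusted p = 0.215). It lay at the threshold of p and passed in 6 of the 17 alternative settings, the replicate block among them (SE 0.17). DSC2, the desmosomal cadherin desmocollin 2, differed by 1.01 (SE 0.50) with groups that overlapped, and by 1.15, 1.00 and 0.88 on slides 1, 2 and 3. It passed with the replicate block (SE 0.12). The other DSC3 probe, A_24_P344416, was called lower, from 6.37 to 5.37 (SE 0.18), having cleared background on 1 of the 3 knockdown arrays. The chosen DSC3 probe differed by -0.0081 (SE 0.46). DSC2 and DSC3 were named after their values were seen. DST, the plakin dystonin, differed by -0.53 (SE 0.21), and its other probes did not share one direction. Of 13 organisers, chaperones and adaptors that bind keratins, none passed, and the median was 0.20. HSPB1, the small heat shock protein HSP27, differed by 0.76 (SE 0.22) and TGM2, a transglutaminase, by -0.42 (SE 0.26).

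Of 20 transcription factors of keratin genes and epithelia on the array, 2 rose and none fell, beside 2.08% and 1.33% of named genes. EHF, an epithelial ETS factor, read 9.24, 9.08 and 8.71 in si-Control and 10.73, 10.67 and 10.54 in si-C1GALT1-3. The difference was 1.63 (SE 0.18, limma adjusted p = 0.073), higher on all 3 slides, and it passed in all 17 alternative settings. ELF3, a related ETS factor named after its values were seen, rose by 1.04 (SE 0.18, limma adjusted p = 0.141) with no value on si-Control replicate 2, and lost its call in 8 of the 17. TFAP2C, an AP-2 factor, differed by -1.04 (SE 0.36), which did not pass. It passed with the low-signal area kept (-1.26, SE 0.28) and without si-Control replicate 2 (-1.37, SE 0.30). The median of the list was 0.01.

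Of 16 intermediate filament genes other than keratins, 2 rose and 1 fell, beside the same 2.08% and 1.33% of named genes. BFSP1, a beaded filament protein of the lens, read 8.40, 7.69 and 7.85 in si-Control and 9.64, 9.81 and 9.25 in si-C1GALT1-3, a difference of 1.59 (SE 0.25, limma adjusted p = 0.107). It passed in all 17 alternative settings. SYNC, syncoilin, rose by 1.36 (SE 0.31, limma adjusted p = 0.170), and NES, nestin, fell by 1.05 (SE 0.17, limma adjusted p = 0.115). Both were named after their values were seen, and both lost their call with normexp background correction. NES also lost it without normalization and without si-C1GALT1-3 replicate 3. SYNC also lost it in the methods' t-test and the series table. It lost it as well without si-Control replicate 1 or 2, and without si-C1GALT1-3 replicate 2 or 3. VIM, the filament protein of mesenchymal cells, read 10.41, 11.16 and 10.32 in si-Control and 9.69, 9.95 and 9.06 in si-C1GALT1-3. The groups did not overlap, and the difference of -1.06 (SE 0.33, limma adjusted p = 0.269) did not pass. It passed with dim probes left out (SE 0.32) and with the replicate number as a block (SE 0.17). The difference between these genes and the keratins was not tested.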

How the data were processed

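Per the labels, the arrays were processed with Agilent Feature Extraction 10.5.1.1. The deposited spot intensity, corrected for background and not normalized between arrays, was log2-transformed. Control spots were left out. Spots marked non-uniform or as population outliers (100 to 424 per array) and the low-signal area of si-Control replicate 2 had no value. Quantile normalization between arrays followed the study's methods, the spots of a probe were averaged, and the groups compared with limma 3.58.1 (lmFit, eBayes; R 4.3.3). P-values were adjusted by Benjamini-Hochberg over 58193 probes, and 8 probes had too few values. A call needed p under 0.01 and 2-fold. The deposited series table holds background-subtracted intensity, equal to the scanner column within 4.8e-09, and was used in 1 alternative. Each gene is shown by its probe with the highest mean signal. Levels of different probes are not compared.

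The deviations of arrays that shared a replicate number, and a slide, correlated at 0.198, 0.215 and 0.329, so the numbers were taken to mark pairs. The main fit had no term for the pairs, and the block was run as an alternative. The fit was also run on simulated data, in which arrays were drawn without pairs. It called 38.8% of probes changed by 1 log2 unit and 83.8% of those changed by 2. It also called 265 unchanged probes among 58192 probes in all. Named genes were the 10 keratins, C1GALT1, the largest rise and fall of each list and the 3 genes most like KRT23, of which 1 is not reported here. The members and lists were chosen with earlier results of these data known. Alternatives were the area kept, 75th percentile or no normalization, normexp, dim probes left out, marked spots kept, the block, a trend and robust prior, the methods' t-test, the series table, the median over probes, and each array left out. Names come from RefSeq (GRCh38.p14), whose build differs from that of the files.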

Additional observations from a re-analysis of the deposited data

How the results depend on the processing

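None of the 10 keratins passed p under 0.01 and 2-fold by its chosen probe in any of the 17 alternative settings. Of the 136 differences recomputed for these probes, 126 kept their direction and side of the threshold and 10 changed sign, none of these with an unadjusted p under 0.05. Without normalization, KRT17 was 0.029, KRT19 0.011 and the non-coding KRT8 probe 0.10. That probe was 0.017 with normexp and 0.00044 in the series table, and the further KRT18 probe was 2.48 with the area kept. Leaving out each array in turn gave -0.17 to 0.41 for KRT15, -0.52 to 0.23 for KRT17, -0.29 to 0.29 for KRT19, -0.25 to 0.0026 for KRT7, -0.61 to 0.15 for KRT80, -0.75 to 0.072 for the further KRT18 probe, -0.26 to 0.26 for the non-coding KRT8 probe, -0.16 to 0.70 for KRT36, -1.05 to -0.50 for KRT39 and 0.20 to 1.28 for KRT6C. With each array left out in turn, KRT23 stayed between 0.66 and 0.84 in its chosen probe. Over all 17 alternatives it ran from 0.58 to 1.18. The unadjusted count of 1 keratin became 0 without normalization. The replicate block gave KRT8 -0.29 (SE 0.13) and KRT18 -0.36 (SE 0.14), and changed no call among the 10. Over all probes the 1538 calls, 62.5% higher, became 915 with normexp and 896 with the methods' t-test, with 40.2% higher when the area was kept, 72.6% without normalization and 52.2% without si-Control replicate 1. The 49 probes with adjusted p under 0.05 ranged from 0 to 545. Scaling to the 75th percentile moved the median of all probes to -0.11. Precision is limited by 3 arrays a group, and the causes of these changes were not tested.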

Other observations

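Probes for keratin pseudogenes and for long non-coding RNAs named after keratin loci stood outside the comparisons above. Of 7 keratin pseudogenes on the array, 6 were well above background, and all 6 were lower with si-C1GALT1-3, by -0.25 for KRT17P5 to -0.66 for KRT8P41, with none past p under 0.01 and 2-fold. KRT18P55 was at 17.10 in si-Control and 16.72 in si-C1GALT1-3, a difference of -0.38 (SE 0.33). Such pseudogenes can be near-identical to their parent genes, and the probe sequences were not used here, so a probe's signal cannot be assigned to pseudogene or parent.

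Of 5 long non-coding probes named after keratin loci, 2 were well above background on all 6 arrays. The probe named lnc-KRT80-5:1 read 11.47, 10.61 and 11.04 in si-Control and 10.26, 10.13 and 10.68 in si-C1GALT1-3. The groups overlapped through replicate 3 of si-C1GALT1-3, and the difference was -0.68 (SE 0.27, limma adjusted p = 0.359). The probe named lnc-KRT80-3:1 differed by -0.13 (SE 0.31). These genes were chosen after their values were seen.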
